A study of Mus musculus with 6 samples.

Results

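The 41 genes described here are marker genes of the cells that build brain blood vessels: 27 of endothelial cells, 11 of mural cells (pericytes and smooth muscle), 2 of fibroblasts, and Igfbp7, which endothelial and mural cells share. They were taken by symbol from the 47480 genes of the deposited table, the rule itself using no values, and the division by cell type follows general knowledge of mouse brain vessels. The study profiled VMHpvlm and VMHpvll, neighbouring parts of the ventrolateral ventromedial hypothalamus, by RNA sequencing of laser-captured tissue. VMHpvlm and VMHpvll each had 3 libraries, all from female mice of the VgluT2-cre/Ai6 background and with no treatment named, in which cre driven by VgluT2 (Slc17a6) switches on the Ai6 fluorescent reporter. The sources used here do not give ages, the number of mice behind a library or how the captured borders were drawn. The titles give each region a library named F19, one named F20 and one named KH_161103, and in every set of 3 values below the libraries stand in that order. A shared name is treated as a pair. Captured tissue holds every cell in its outline, so fewer cells of a type and less RNA per cell cannot be told apart.

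Endothelial cells line the vessel lumen. In brain they are sealed by tight junctions and carry transporters for glucose, lipids and organic anions and pumps that return drugs to the blood, which together form the blood-brain barrier. Pericytes wrap capillaries and are recruited by endothelial Pdgfb acting on the pericyte receptor Pdgfrb. Smooth muscle cells with actin and myosin of the contractile type surround arteries and arterioles, and fibroblasts lie in the sheath of larger vessels and in the meninges.

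The windows before the gene starts are shown for 4 chosen endothelial genes that were lower in VMHpvlm. The reason is that Erg, 1 of the 4, encodes a transcription factor of the ETS family, which binds a purine-rich core. The 4 include every endothelial gene that had a match and was lower in VMHpvlm by the region test below. Each line gives the 250 bases before a RefSeq gene start (GRCm38.p6), 5′ to 3′ on the gene's strand, and capitals mark AGGAAG or its reverse complement CTTCCT, searched on both strands. For Erg, which has several starts in RefSeq, the window with a match is shown.
Cd34, chr1:194938571-194938820, plus strand: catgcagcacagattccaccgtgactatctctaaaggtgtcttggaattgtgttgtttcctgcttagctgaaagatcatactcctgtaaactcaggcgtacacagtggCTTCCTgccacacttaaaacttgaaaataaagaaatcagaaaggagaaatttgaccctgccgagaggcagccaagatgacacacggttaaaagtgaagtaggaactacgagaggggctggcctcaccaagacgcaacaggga
Slco1c1, chr6:141524104-141524353, plus strand: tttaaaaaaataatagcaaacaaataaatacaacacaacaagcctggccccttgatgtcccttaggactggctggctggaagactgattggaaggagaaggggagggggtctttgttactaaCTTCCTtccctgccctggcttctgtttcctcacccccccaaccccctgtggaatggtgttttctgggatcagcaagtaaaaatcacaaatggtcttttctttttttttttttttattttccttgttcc
Erg, chr16:95459349-95459598, minus strand: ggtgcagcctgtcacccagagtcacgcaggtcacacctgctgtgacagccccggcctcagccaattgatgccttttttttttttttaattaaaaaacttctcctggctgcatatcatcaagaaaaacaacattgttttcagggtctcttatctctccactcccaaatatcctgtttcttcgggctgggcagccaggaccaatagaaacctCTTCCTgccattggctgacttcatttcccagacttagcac
Cldn5, chr16:18776597-18776846, plus strand: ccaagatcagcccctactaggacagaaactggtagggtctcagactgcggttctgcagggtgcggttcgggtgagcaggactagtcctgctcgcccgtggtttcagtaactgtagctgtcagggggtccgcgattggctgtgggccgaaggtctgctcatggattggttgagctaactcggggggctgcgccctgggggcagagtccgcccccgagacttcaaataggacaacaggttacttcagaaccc

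The core begins 142 bases before the start in Cd34, 128 bases before it in Slco1c1 and 40 bases before it in Erg, and the Cldn5 window has no match. RefSeq windows were matched for 25 of the 41 genes, with 33 windows in all, since some genes have several starts. AGGAAG occurred in 15 of 26 endothelial windows (57.7%), some of them of the same gene, and in 2 of 6 mural windows, against 29.5% of all 32851 windows. Besides Cd34, Erg and Slco1c1, the endothelial genes with a match were Abcb1a, Abcg2, Egfl7, Emcn, Eng, Itm2a, Ly6c1, Slco1a4 and Tie1. None of these others passed the region test described below, and a link between the core and the region difference was not tested. Cd93, Pdgfb, Pecam1, Slc2a1 and Tjp1, endothelial genes that did pass it, had no match or no matched window. The windows shown are therefore not a fair sample of the genes lower in VMHpvlm. ACAATG, a core bound by SOX factors such as those encoded by Sox17 and Sox18, occurred in 3 of 26 endothelial windows (11.5%) and 0 of 6 mural windows, against 10.7% of all. The CArG box, the motif of serum response factor, occurred in 0 of the 33 windows and in 1.47% of all. No windows were matched for the contractile genes Tagln and Myh11, and only 6 windows were mural. The 0 therefore does not describe the smooth muscle genes as a group. These matches describe letters and were not tested as binding sites.

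Of the vascular marker genes that could be tested, 11 were lower in VMHpvlm than in VMHpvll, and 9 of these were endothelial. A gene was tested where its mean normalised read count over the 6 libraries was at least 10, which held for 38 of the 41 genes. It was called where the limma adjusted p was below 0.05. Of the 38, 0 were called higher in VMHpvlm and 11 were called higher in VMHpvll, against 10.5% and 9.48% of the 14522 genes tested. At an unadjusted p below 0.05, 1 of the 38 was higher in VMHpvlm, and 0 were called in that direction by edgeR or by DESeq2, which called 10.1% and 4.46% of all genes higher in VMHpvlm and 10.7% and 4.01% higher in VMHpvll. The 11 genes were all called by edgeR as well, whereas DESeq2 called 4 of them (Cd93, Pdgfb, Cd34 and Tjp1) and a variance prior without trend or robust fitting 2 (Cd93 and Erg). By cell type, 9 of 27 endothelial genes, 1 of 9 tested mural genes, Igfbp7 and 0 of 1 tested fibroblast genes were called higher in VMHpvll. The median fitted log2 difference, VMHpvlm minus VMHpvll, was -0.42 over the endothelial genes and -0.21 over the mural genes, beside 0.00 over all genes tested. Whether the 2 medians differ was not tested, and their order turned with a filter at a mean of 50 (-0.34 endothelial, -0.57 mural), where fewer genes remained. Without the F20 pair they were nearly level (-0.54 endothelial, -0.53 mural), and without the F19 pair the mural median was 0.13. Libraries did not overlap between regions, with VMHpvlm the lower, in 18 of the 38 genes, against 13.5% of all genes tested, and Ocln alone had all VMHpvlm libraries above all VMHpvll libraries, against 14.5%.

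**Figure D1:**
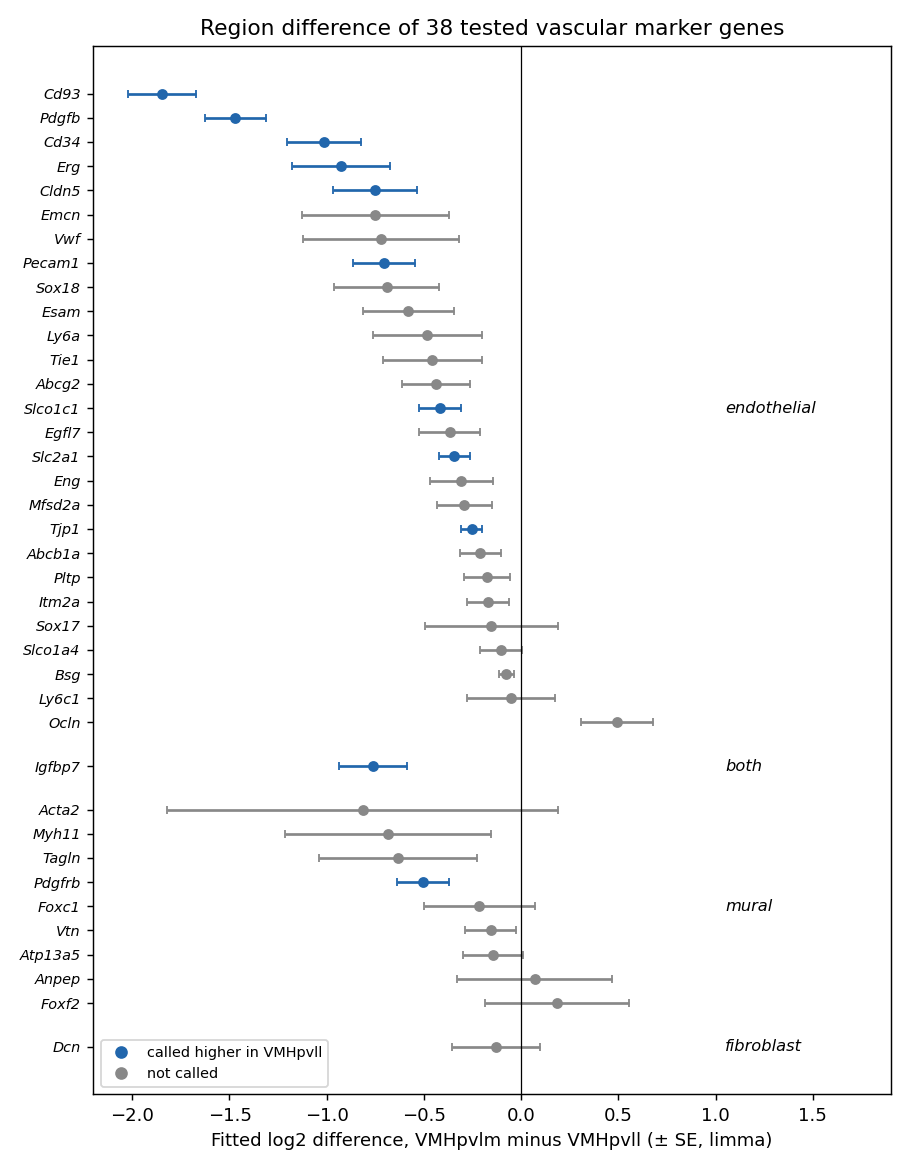
Fitted log2 difference (VMHpvlm minus VMHpvll) of the 38 tested genes by cell type, with bars giving the standard error of the limma fit; the 11 genes called higher in VMHpvll are in blue and all others in grey. Most endothelial points lie left of 0, Ocln lies right of it, and the contractile genes Acta2, Myh11 and Tagln have the widest bars among the mural genes.

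The labels name a region and no cell type, so the presence of vessel cell RNA was checked first. Of the 41 genes, 40 were above 0 in all 6 libraries, and Lum was listed at 0 in the F19 library of VMHpvlm. Depth was between 7157831 and 11293159 recovered reads per library. The summed normalised count of the 27 endothelial genes was between 6662 and 6835 in VMHpvlm and between 7775 and 8067 in VMHpvll. Most of it came from Bsg (means of 3238 in VMHpvlm and 3418 in VMHpvll) and Tjp1 (1140 and 1361). A sum without them was not computed. For the 11 mural genes the sums were between 567 and 1242 in VMHpvlm and between 659 and 2239 in VMHpvll. The mural ranges overlapped through the 3 contractile genes, which summed to between 145 and 812 in VMHpvlm and between 175 and 1697 in VMHpvll. The 8 other mural genes summed to between 408 and 430.3 in VMHpvlm and between 484 and 542 in VMHpvll. Neither these nor the endothelial sums overlapped between regions. Divided by exonic length, the highest levels were those of Bsg (1785 in VMHpvlm and 1884 in VMHpvll, mean normalised count per kilobase of exon) and Tjp1 (146 in VMHpvlm and 174 in VMHpvll). Both genes are also active in many other cell types, neurons and glia included. Cldn5, which is close to restricted to endothelium in brain, stood at 26.6 in VMHpvlm and 46.6 in VMHpvll on this per-length scale.

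Among the genes of junctions and adhesion, 5 of 8 were lower in VMHpvlm by the test, 0 were higher, and 7 of 8 had VMHpvlm below VMHpvll in 3 of 3 pairs. Over all genes tested, 9.48% were called higher in VMHpvll and 10.5% in VMHpvlm, and 23.2% had VMHpvlm below in 3 of 3 pairs. Cd93, a C-type lectin receptor of the endothelial surface (chr2:148436640-148443563, GRCm38, GENCODE M21), had normalised read counts of 46.05, 47.2 and 38.1 in VMHpvlm, against 196, 119 and 173 in VMHpvll. Every VMHpvll library lay above every VMHpvlm library, and the VMHpvlm libraries lay closer together than those of VMHpvll. The means were 43.8 ± 4.93 in VMHpvlm and 163 ± 39.4 in VMHpvll (SD, n = 3 each), 3.72-fold higher in VMHpvll, with a fitted log2 difference of -1.85 ± 0.17 SE (limma adjusted p = 1.38e-11), the largest of the 38 genes. Cd34, a sialomucin of endothelial and some progenitor cells, had counts of 43.3, 54.1 and 44.5 in VMHpvlm and 123, 78.9 and 91.3 in VMHpvll, a log2 difference of -1.01 ± 0.19 SE (limma adjusted p = 6.48e-05). Its VMHpvlm libraries lay close together, and the F19 library of VMHpvll was the highest. Cldn5, the main claudin of brain endothelial tight junctions (chr16:18776847-18778262), had 39.3, 37.5 and 36.3 in VMHpvlm and 89.04, 55.1 and 53.9 in VMHpvll (log2 difference -0.75 ± 0.22 SE, limma adjusted p = 0.00887). Here too the F19 library of VMHpvll stood well above the other libraries of that region.

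Pecam1, an adhesion molecule at endothelial cell contacts, had 74.5, 97.2 and 73.6 in VMHpvlm and 165, 121 and 118 in VMHpvll (log2 difference -0.71 ± 0.16 SE, limma adjusted p = 0.000644). Tjp1, the scaffold protein that ties claudins to the cytoskeleton, had 1172, 1187 and 1061 in VMHpvlm and 1498, 1309 and 1276 in VMHpvll, a small difference of -0.25 ± 0.05 SE on the log2 scale (limma adjusted p = 0.000253). Its libraries did not overlap between regions. Ocln, which encodes the tight junction protein occludin, ran the other way, with 77.2, 76.3 and 79.9 in VMHpvlm and 63.8, 49.1 and 52.9 in VMHpvll. It was higher in VMHpvlm in 3 of 3 pairs and its libraries did not overlap, but it was not called with a fixed pair term (log2 difference 0.49 ± 0.19 SE, limma adjusted p = 0.0544). It was called with the pair as a random effect (limma adjusted p = 0.0421), with a filter at a mean of 50 (0.0491) and with libraries scaled to the same total (0.0403), settings that called 9.48%, 13.3% and 12.1% of all genes higher in VMHpvlm. Over all alternatives run, its adjusted p lay between 0.0403 and 0.497. Esam, a junctional adhesion molecule, and Emcn, a sialomucin of capillaries and veins, had log2 differences of -0.58 (limma adjusted p = 0.0763) and -0.75 (limma adjusted p = 0.18), and neither was called. Esam was called without the F20 pair (-0.77, limma adjusted p = 0.0359), in a fit where the variance prior had infinite weight. Without the F19 pair, Cldn5 (log2 difference -0.55, limma adjusted p = 0.217) and Pecam1 (-0.49, adjusted p = 0.0722) were no longer called.

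**Figure D2:**
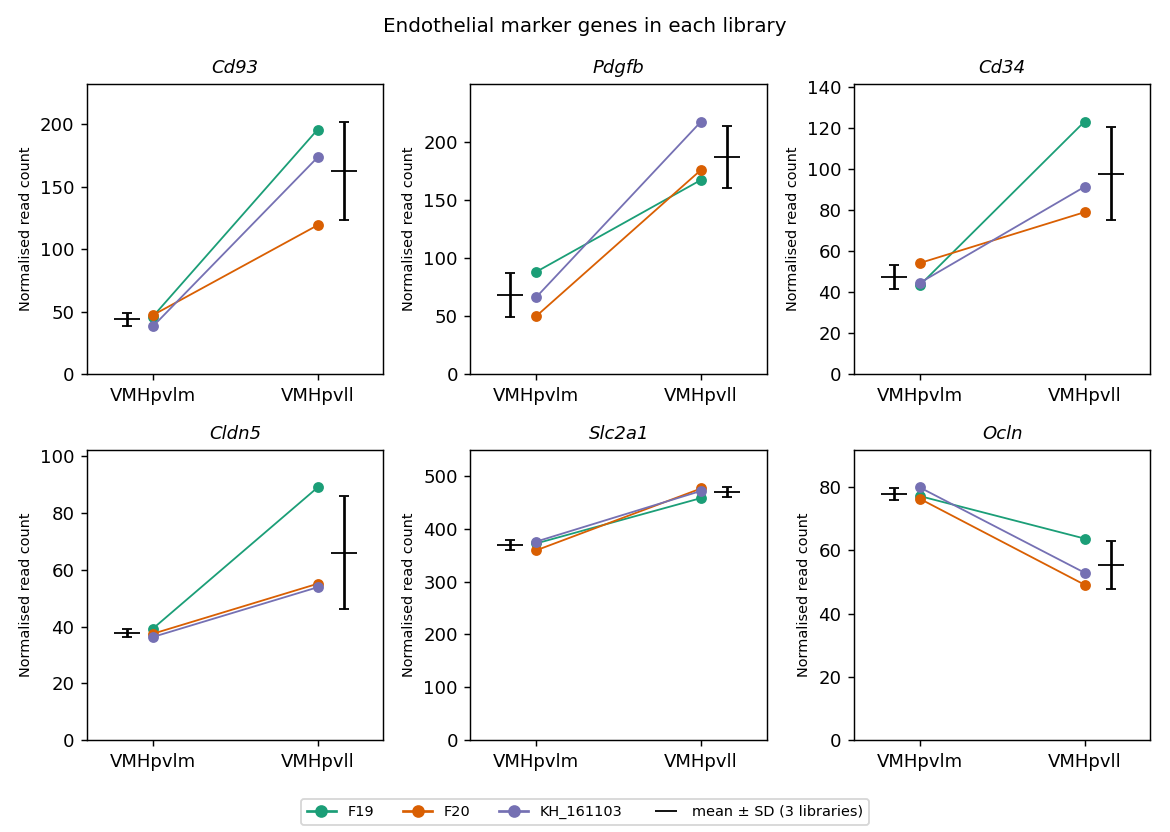
Normalised read counts of 6 endothelial genes in each library, where a line connects the 2 libraries of a pair and the black marks show the region mean with its SD (n = 3). Cd93, Pdgfb, Cd34, Cldn5 and Slc2a1 were lower in VMHpvlm in 3 of 3 pairs, and Ocln was higher in VMHpvlm in 3 of 3 pairs without being called.

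Of the transport genes, all 7 had negative fitted differences, between -0.44 and -0.08, and 2 were called. Of all genes tested, 9.48% were called in that direction. Slc2a1, the glucose transporter of the blood-brain barrier, had 372, 359.5 and 376 in VMHpvlm and 458, 477 and 472 in VMHpvll. The libraries within each region lay so close that a 1.27-fold difference separated the regions (log2 difference -0.34 ± 0.08 SE, limma adjusted p = 0.000941). Slco1c1, a thyroxine transporter of endothelial cells that astrocytes also express, had 171, 219 and 186 in VMHpvlm and 272, 246 and 249 in VMHpvll (log2 difference -0.42 ± 0.11 SE, limma adjusted p = 0.00402). It was not called without the F19 pair (-0.29, limma adjusted p = 0.128) or without the KH_161103 pair (-0.42, adjusted p = 0.0545). Slco1a4, an organic anion transporter that is a close endothelial relative of Slco1c1, had 211, 207 and 255 in VMHpvlm and 213, 277 and 234 in VMHpvll. These values overlapped, and the pair differences were -0.01, -0.42 and 0.13 on the log2 scale.

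The efflux pumps Abcg2 (log2 difference -0.44, limma adjusted p = 0.0713) and Abcb1a (-0.21, adjusted p = 0.177) were not called, nor was Mfsd2a, the carrier of omega-3 lysolipids (-0.29, adjusted p = 0.154). Bsg, which encodes basigin, a partner of monocarboxylate transporters, had the narrowest difference of this group (-0.08 ± 0.04 SE, limma adjusted p = 0.189). Reads of Abcb1a are uncertain, since 17.6% of its 50-base stretches in GENCODE M21 transcripts also occur in another gene, mostly its neighbour Abcb1b.

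The ligand and the receptor that join endothelium to pericytes were both lower in VMHpvlm. Pdgfb (chr15:79995874-80014977) had 88.04, 49.97 and 66.3 in VMHpvlm and 167, 176 and 217 in VMHpvll. The regions did not overlap, and unlike Cldn5 the highest VMHpvll library was KH_161103. The mean was 2.74-fold higher in VMHpvll (log2 difference -1.47 ± 0.16 SE, limma adjusted p = 4.54e-10). Neurons also express Pdgfb. Pdgfrb had 123, 144 and 107 in VMHpvlm and 212, 159 and 162 in VMHpvll, a 1.42-fold difference toward VMHpvll (log2 -0.51 ± 0.13 SE, limma adjusted p = 0.00384). The receptor was not called without the F19 pair (-0.37, limma adjusted p = 0.124) or without the KH_161103 pair (-0.46, adjusted p = 0.0734). Eng, a co-receptor for TGF-beta ligands, and Tie1, an endothelial receptor kinase, had overlapping libraries and were not called (log2 differences -0.31 and -0.46, limma adjusted p = 0.206 and 0.234).

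Of the endothelial transcription factors, Erg was called and the SOX genes were not. Erg, which keeps endothelial identity, had 21.7, 29.1 and 24.5 in VMHpvlm and 48.4, 58.1 and 40.2 in VMHpvll, and the libraries did not overlap (log2 difference -0.93 ± 0.25 SE, limma adjusted p = 0.0053, and -0.83 with adjusted p = 0.0585 without the F19 pair). Sox18 had 24.4, 22.2 and 24.5 in VMHpvlm and 45.1, 43.2 and 30.1 in VMHpvll without overlap (log2 difference -0.69, limma adjusted p = 0.0645). Sox17, known from arterial endothelium, had 17.6, 30.5 and 11.8 in VMHpvlm and 34.1, 17.9 and 14.6 in VMHpvll. Its libraries overlapped, and the pairs went in both directions, at -0.91, 0.74 and -0.29 on the log2 scale. Part of the reads of Sox17 is uncertain, since Gm37587 on the opposite strand covers 16.8% of its exonic bases.

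Secreted and other surface products of endothelium had no call. Vwf, the clotting factor most abundant in larger vessels, had 48.8, 114 and 31.8 in VMHpvlm and 168, 90.8 and 52.9 in VMHpvll. Its libraries spread widely within both regions (log2 difference -0.72 ± 0.40 SE, limma adjusted p = 0.317). It was called higher in VMHpvll with no filter (-0.72, limma adjusted p = 0.00236) and without the F20 pair (-1.24, adjusted p = 2.35e-06), and without the F19 pair its difference was -0.20 (adjusted p = 0.693). With no filter the variance prior contributed 43613 degrees of freedom (median of finite values), and the SE of Vwf fell to 0.19. Without the F20 pair the prior had infinite weight, so both calls rest on the prior more than on the spread of Vwf. Egfl7 and Pltp, a secreted angiogenic factor and a phospholipid transfer protein, had log2 differences of -0.37 and -0.17 (limma adjusted p = 0.0936 and 0.35). Other genes overlap 12.8% of the exonic bases of Egfl7 and 19.3% of those of Pltp, so part of their reads is uncertain. Ly6c1, a GPI-anchored protein used as a marker of brain endothelium, had 48.8, 47.2 and 31.8 in VMHpvlm and 50.6, 52.1 and 31.04 in VMHpvll. Those counts were nearly level between regions, with a log2 difference of -0.05 ± 0.23 SE (limma adjusted p = 0.915). Ly6a (-0.48, limma adjusted p = 0.257) and the membrane protein gene Itm2a (-0.17, adjusted p = 0.295) were also not called. Reads of the Ly6 genes are uncertain: 32.8% of the 50-base stretches of Ly6c1 occur in another gene, mostly Ly6c2, and 18.97% of those of Ly6a, mostly Ly6c1. Igfbp7, which encodes a secreted protein of endothelial and mural cells, was lower in VMHpvlm, with 82.6, 65.2 and 45.4 there and 132, 87.9 and 105 in VMHpvll (log2 difference -0.76 ± 0.17 SE, limma adjusted p = 0.000825), but was not called without the KH_161103 pair (-0.55, adjusted p = 0.0846).

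Among pericyte genes other than Pdgfrb, no difference passed the test. Vtn, the matrix protein vitronectin, had 126, 132 and 146 in VMHpvlm and 129.7, 180.2 and 144 in VMHpvll, with overlapping libraries (log2 difference -0.16 ± 0.13 SE, limma adjusted p = 0.469). Atp13a5, a transport ATPase that marks brain pericytes, had a log2 difference of -0.14 ± 0.15 SE (limma adjusted p = 0.584). Its F20 library was the lowest in both regions, at 70.8 in VMHpvlm and 77.4 in VMHpvll. Anpep, the aminopeptidase of the pericyte surface, had 9.48, 15.3 and 17.3 in VMHpvlm and 13.2, 14.9 and 10.96 in VMHpvll, a level at which the difference of 0.07 ± 0.40 SE on the log2 scale was well inside its error (limma adjusted p = 0.938). The forkhead genes Foxc1 and Foxf2, which act in pericytes, fibroblasts and endothelium, had log2 differences of -0.21 and 0.18 and were not called (limma adjusted p = 0.678 and 0.799). Higd1b and Ndufa4l2, further pericyte markers, were below the filter. Higd1b had 4, 6 and 6 recovered reads in VMHpvlm and 8, 6 and 4 in VMHpvll, and Ndufa4l2 had 3, 3 and 1 in VMHpvlm and 3, 5 and 3 in VMHpvll. With no filter neither was called (log2 differences -0.08 and -0.48, limma adjusted p = 0.963 and 0.771).

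The contractile genes of smooth muscle varied widely between libraries of the same region, and none was called between regions. Acta2, smooth muscle actin (chr19:34241090-34255590), had 56.9, 157 and 29.97 in VMHpvlm and 439, 152 and 21.9 in VMHpvll. Within VMHpvll the highest library was 20.02-fold above the lowest, a spread that 5 of 14517 tested genes matched or passed, and within VMHpvlm it was 5.23-fold. The median spread of all tested genes was 1.20-fold in VMHpvlm and 1.21-fold in VMHpvll. Myh11, the smooth muscle myosin heavy chain, had 333, 597 and 104 in VMHpvlm and 1116, 536 and 143 in VMHpvll. Tagln, the actin-binding protein transgelin, had 31.2, 58.3 and 11.8 in VMHpvlm and 143, 56.6 and 10.04 in VMHpvll, with 67.9% of its exonic bases overlapped by Gm48529 and Pcsk7 on the opposite strand, so that its reads are uncertain. All 3 genes had their highest value in the F19 library of VMHpvll, and both KH_161103 libraries were the lowest in each region.

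Region differences of the contractile genes were widest in the F19 pair. The pair differences on the log2 scale were -2.92, 0.05 and 0.43 for Acta2, -1.74, 0.15 and -0.47 for Myh11 and -2.16, 0.04 and 0.21 for Tagln. VMHpvlm was thus the lower in the F19 pair for all 3 genes, while in the F20 pair it was slightly the higher. None of the 3 was called by limma (adjusted p between 0.346 and 0.708), edgeR or DESeq2, and 0 had an unadjusted p below 0.05 in any of these. Without the F20 pair all 3 were called higher in VMHpvll (log2 differences of -1.24, -1.10 and -0.97, limma adjusted p = 1.13e-06, 1.67e-21 and 0.0292), a setting that called 9.37% of all genes in that direction, and without the F19 pair Acta2 and Tagln turned to 0.24 and 0.13 (adjusted p = 0.616 and 0.892). In both of these fits, with 1 residual degree of freedom, the variance prior had infinite weight. Vwf and the fibroblast gene Dcn ordered the libraries in a like way. Dcn, the proteoglycan decorin, had 47.4, 68.01 and 30.9 in VMHpvlm and 84.6, 56.6 and 27.4 in VMHpvll (log2 difference -0.13 ± 0.23 SE, limma adjusted p = 0.76), and as for Acta2 and Tagln the F19 library of VMHpvll was the highest and the KH_161103 library of VMHpvll the lowest.

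**Figure D3:**
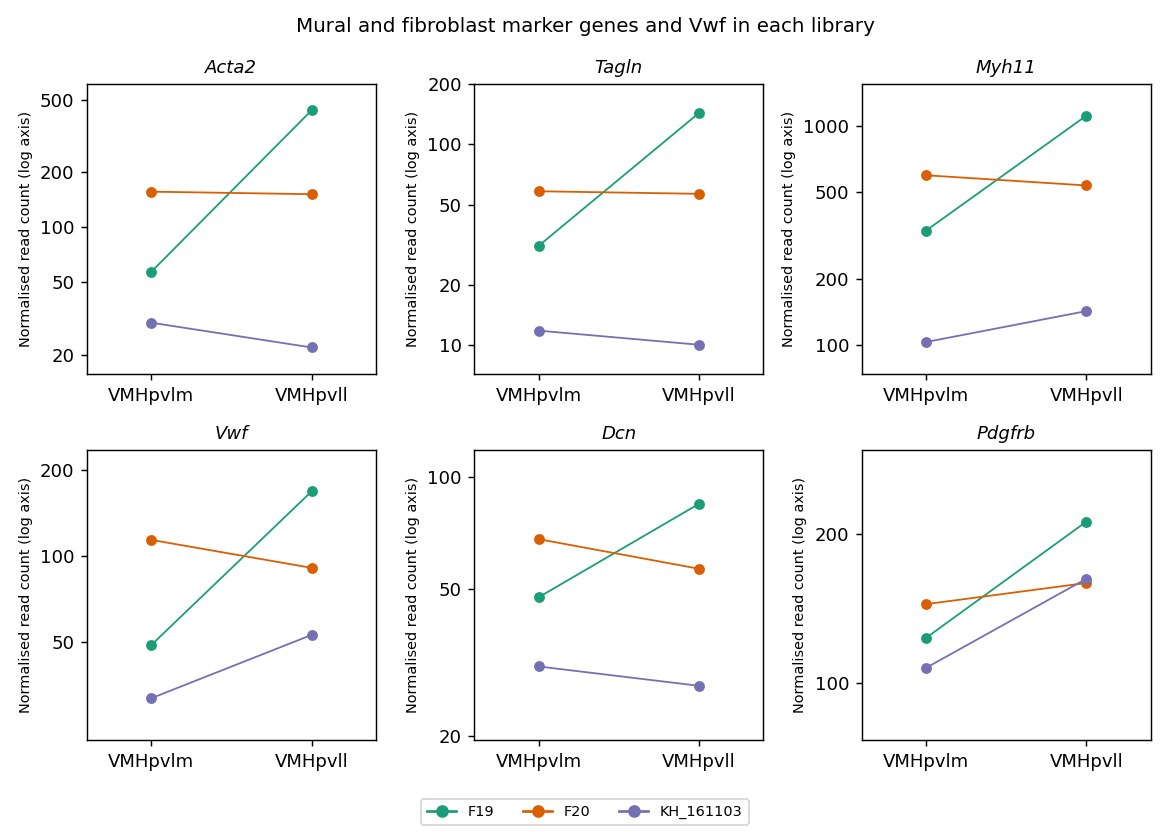
Normalised read counts on log axes, with its own scale in each panel, of the contractile genes Acta2, Tagln and Myh11, of Vwf, of the fibroblast gene Dcn and of the pericyte receptor Pdgfrb, where a line connects the 2 libraries of a pair. The F19 lines climb toward VMHpvll and the F20 lines of the first 5 genes do not, while Pdgfrb was lower in VMHpvlm in 3 of 3 pairs.

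Lum, the fibroblast proteoglycan lumican, had 0, 3 and 3 recovered reads in VMHpvlm and 25, 6 and 5 in VMHpvll, and was below the filter. Taken here as a floor, 3 reads correspond to a normalised count of 4.06 in the F19 library of VMHpvlm, where Lum was at 0. With no filter it was called higher in VMHpvll (log2 difference -2.12, limma adjusted p = 0.00556), where 4.76% of all genes were called in that direction, again with the F19 library of VMHpvll far above the others at 27.5. In that fit the variance prior had in effect infinite weight for Lum, and most of its reads, 25, lay in that library. Of the 38 tested genes, 21 were highest in the F19 library of VMHpvll, against 16.9% of all genes tested.

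Vessel genes outside the 41, from lists drawn up for the same cell types, were mixed. Their counts stand beside 10.5% of all genes tested called higher in VMHpvlm and 9.48% called higher in VMHpvll. Of 27 tested further endothelial genes, 3 were called higher in VMHpvlm and 9 in VMHpvll, with a median log2 difference of -0.33. Those lower in VMHpvlm included the transcription factor gene Klf4 (-1.97, limma adjusted p = 3.09e-11) and the VEGF receptor genes Kdr (-0.96, adjusted p = 2.88e-09) and Flt1 (-0.55, adjusted p = 8.23e-09). Palmd, a membrane-associated protein gene, was higher in VMHpvlm, at 308 ± 41.7 there and 144 ± 8.29 in VMHpvll (SD, n = 3 each; limma adjusted p = 1.01e-10). Of 18 tested further mural genes, 0 were called higher in VMHpvlm and 7 in VMHpvll, with a median of -0.42. The sums of these further lists differed in overlap from those of the 41: the 22 mural genes summed to between 3741 and 4249 in VMHpvlm and between 6487 and 6803 in VMHpvll, and the 30 endothelial genes to between 3289 and 3867 in VMHpvlm and between 3836 and 4014 in VMHpvll, where the ranges overlapped. Rgs5, a pericyte marker, had a log2 difference of -0.28 (limma adjusted p = 0.00169), Mcam, an adhesion molecule of vessels, -0.77 (adjusted p = 0.00106), Mylk, the myosin light chain kinase, -1.46 (adjusted p = 0.00999) and Rgs4, which neurons also express strongly, -0.97 (adjusted p = 2.40e-23). Rgs4 is part of the mural sum above, which weighs abundant genes most, and its share of that sum was not examined. The 9 tested mural genes of the 41 thus had 1 call and these 18 had 7, a contrast that was not tested.

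Of 12 tested further fibroblast genes, 1 was called higher in VMHpvlm and 2 in VMHpvll. For this list and the Wnt list below, the shares over all genes tested were 10.5% and 9.48%, in the same order. The laminin gene Lama1 was the gene higher in VMHpvlm (1.75, limma adjusted p = 1.23e-18), and the collagen gene Col6a1 (-1.76, adjusted p = 1.48e-06) and Pdgfra, which oligodendrocyte precursors share (-0.24, adjusted p = 0.00372), were the others. Of 16 tested genes of the Wnt pathway that sets up the barrier, 1 was called higher in VMHpvlm and 4 in VMHpvll. The receptor genes Fzd4 (-0.54, limma adjusted p = 0.00746) and Lrp5 (-0.70, adjusted p = 0.00428) and the transcription factor gene Lef1 (-0.74, adjusted p = 0.015) were lower in VMHpvlm, whereas the ligand gene Wnt7a, made by neural cells, was higher there (0.70, adjusted p = 0.00371). Further contractile genes of the mural list, picked out after their values were seen and so only described, differed among themselves. Myl9, a myosin light chain, had 48.8, 68.01 and 19.98 in VMHpvlm and 109, 62.5 and 28.3 in VMHpvll, and Tpm2, a tropomyosin, had 44.7, 69.4 and 13.6 in VMHpvlm and 131, 50.6 and 16.4 in VMHpvll. Neither was lower in VMHpvlm in the F20 pair. Mylk, by contrast, was lower in VMHpvlm in 3 of 3 pairs without overlap, with pair differences of -1.65, -0.75 and -1.98 on the log2 scale, the widest in KH_161103. Lmod1, an actin nucleator of muscle, had pair differences of -2.001, -0.58 and 1.53, and Des, the muscle filament desmin, -2.70, 0.66 and -1.25, and neither was called. The KH_161103 difference of Lmod1 rests on normalised counts of 4.54 in VMHpvlm and 0.913 in VMHpvll, the latter the value of 1 read. Cnn1 and Pln, also contractile genes, were below the filter.

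Some markers of oligodendrocytes, astrocytes and neurons were also called. Over all genes tested, 10.5% were called higher in VMHpvlm and 9.48% in VMHpvll. Of 12 oligodendrocyte markers, 0 were called higher in VMHpvlm and 10 in VMHpvll, with a median log2 difference of -0.41 and summed normalised counts between 12146 and 13942 in VMHpvlm and between 16405 and 17658 in VMHpvll. Of 12 astrocyte markers, 0 were called higher in VMHpvlm and 6 in VMHpvll (median -0.19), with sums between 33189 and 35723 in VMHpvlm and between 38984 and 44216 in VMHpvll. Of 12 neuronal markers, 6 were called higher in VMHpvlm and 0 in VMHpvll (median 0.11), with sums between 79733 and 86395 in VMHpvlm and between 75787 and 80612 in VMHpvll, ranges that overlapped. The part of these shifts in the vessel result was not tested. Of 12 microglia markers, 0 were called by limma, edgeR or DESeq2 and 1 had an unadjusted p below 0.05 by limma (median -0.08), with sums between 1395 and 1501 in VMHpvlm and between 1489 and 1648 in VMHpvll. Of 7 tested tanycyte and ependymal markers, 0 were called higher in VMHpvlm and 2 in VMHpvll, with sums between 429.6 and 549.7 in VMHpvlm and between 651 and 856 in VMHpvll. Markers of blood and of the macrophages around vessels were low. The 5 erythrocyte genes summed to between 24.98 and 113 in VMHpvlm and between 34.3 and 101 in VMHpvll, and the 8 perivascular macrophage genes to between 43.6 and 98.6 in VMHpvlm and between 71.5 and 145 in VMHpvll. Of their 3 and 2 tested genes, 0 were called.

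In each pair the median over the endothelial genes was below 0, at -0.67, -0.20 and -0.34 in F19, F20 and KH_161103, whereas the median over the 3 contractile genes was -2.16, 0.05 and 0.21. The 6 tested mural genes that are not contractile had medians of -0.28, -0.05 and -0.01. The F19 pair thus had the lowest median in all 3 groups of genes. VMHpvlm was below VMHpvll in 3 of 3 pairs for 18 of 27 endothelial genes and 2 of 9 mural genes, against 23.2% of all genes tested.

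**Figure D4:**
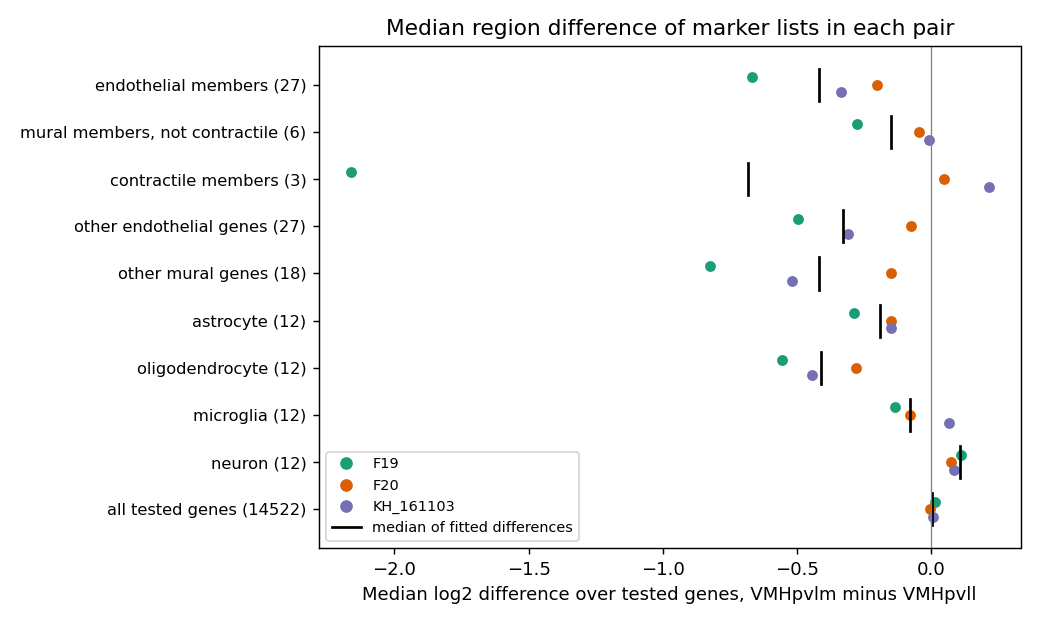
Median log2 difference (VMHpvlm minus VMHpvll) in each pair over the tested genes of each list, with the number of genes after each list name and a vertical black mark for the median of the fitted differences. The 3 points of the endothelial genes lie left of 0, and those of the contractile genes lie at -2.16, 0.05 and 0.21.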

How the data were processed

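RNA from laser-captured VMHpvlm and VMHpvll was extracted with the PicoPure kit and made into stranded total RNA libraries, per the labels' protocols. The submitters' processing notes name HISAT2, featureCounts and mm10, and no source used here gives versions, the annotation or whether counting used strand. The authors deposited a signal per gene that behaves as read counts scaled by a single factor in each library, since 100% of the values above 0 came out as whole reads (tolerance 0.05 reads) after division by the value of 1 read. These gave 7157831 to 11293159 reads per library.

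Values were tested as log2(value + 1), which understates changes of low genes, with limma 3.58.1 in R 4.3.3 (trend, robust), with the region and the pair as terms, two-sided, and Benjamini-Hochberg adjustment over the 14522 genes whose mean reached 10. VMHpvlm minus VMHpvll is the direction of all differences, and folds are ratios of region means. Each gene had 2 residual degrees of freedom, to which the prior contributed 39.9 (median). After removal of region means, same-named libraries correlated at 0.255, 0.244 and 0.363, and differently named ones at 0.0067 or lower, so the names were taken to pair the libraries. The low values are not separate evidence, since removing the mean of 3 libraries forces some correlations down where others are high. No label says that libraries came from separate mice; p-values therefore reflect only how these libraries vary, which may be technical. No 2 libraries of a region agreed within sampling noise (chi-square per degree of freedom 5.54 or more). The self-test on simulated data ran the same model.

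The genes and lists were chosen with earlier results of these data known. Values in every library are given for called genes and a set of main markers, and other genes by smallest p within their list. GENCODE M21 gave exonic lengths and overlaps, and RefSeq (GRCm38.p6) the windows before gene starts. Alternatives were count tests on the recovered reads (edgeR 4.0.16, DESeq2 1.42.0), other pair terms, pseudocounts, filters, scalings and variance priors, and leaving out each pair.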

Additional observations from a re-analysis of the deposited data

How the results depend on the processing

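The 11 genes called higher in VMHpvll, the same genes, remained called without the replicate block, with a random pair effect and with pseudocounts of 0.5 and 5. They also remained called with libraries scaled to the same total or upper quartile, with no filter and by edgeR. With a filter at a mean of 50, 10 of them did, and Erg was not tested. With no filter the variance prior contributed 43613 degrees of freedom (median of finite values), so the calls there rest heavily on the prior. The number of the 11 that were called fell to 4 by DESeq2. It fell to 2, Cd93 and Erg, with a variance prior without trend or robust fitting. That prior contributed 1.78 degrees of freedom, against a median of 39.9 in the main fit. The cause of either fall was not tested. Over all genes, 2905 were called, against 1800 without the replicate block, 1230 by DESeq2 and 422 with that plain prior. Genes called higher in VMHpvlm numbered 1 (Ocln) with a random pair effect, with a filter at 50 and with the same total, against 0 otherwise. Leaving out each pair gave 6 to 16 of the genes called higher in VMHpvll, 0 higher in VMHpvlm in every case and 1773 to 2872 over all genes. The endothelial median then ran from -0.54 to -0.29 and the mural median from -0.53 to 0.13, above 0 without the F19 pair. Single differences that changed sign, none of them called where they did, ran over the omitted pairs from -1.44 to 0.24 for Acta2, -1.06 to 0.13 for Tagln, -0.33 to 0.21 for Dcn, -0.53 to 0.20 for Foxc1 and -0.60 to 0.23 for Sox17 (each above 0 without F19), from -0.22 to 0.057 for Slco1a4 (above 0 without F20) and from -0.20 to 0.32 for Anpep (below 0 without KH_161103). Calls higher in VMHpvlm made up 52.6% of all calls, 58.9% with the same total, 49.0% with the same upper quartile and 44.8% with the plain prior. With a filter at 50 the mural median was -0.57 and the endothelial one -0.34, over fewer genes. With no filter Lum and Vwf were called as well. Without F20, where the variance prior had infinite weight, Acta2, Esam, Myh11, Tagln and Vwf were called. Depth limited Higd1b, Ndufa4l2 and Lum, which stayed under a mean of 10.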
